A study of Homo sapiens with 8 samples.

Results

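The kinase gene SGK1, its relative SGK3, its ligase substrate NEDD4L, the glucocorticoid receptor gene NR3C1 and 4 genes that the receptor switches on were examined in breast cancer cells exposed to N6-carboxymethyllysine (CML). The 8 genes were SGK1, SGK3, NR3C1, FKBP5, TSC22D3, PER1, KLF9 and NEDD4L, and they are 8 of the 17649 genes in the deposited table. They were chosen by symbol, with the rise of SGK1 in this same comparison already known. SGK1 was selected on its change between CML and control, so its difference and its error are given below as a description, and its place among the genes that passed supports nothing. The other 7 genes were proposed with earlier results of these libraries known, and their values come from the same 8 libraries. They were fitted together with all genes, and counts among them are given as a description.

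The series holds 8 RNA-Seq libraries of the established human line MDA-MB-231, an estrogen receptor negative breast cancer line. CML is an advanced glycation end product, a lysine modified by sugar-derived carbonyl compounds. The 4 CML cultures received 1 μM CML for 48 hours, the 4 control cultures received PBS, and both groups were grown in T25 flasks in medium with 5 mM glucose. The comparison asks which transcripts differ when the cells are exposed to CML, and neither the labels nor the methods name a glucocorticoid among the agents. All libraries come from 1 established line, and nothing in the labels says that they came from separate cultures handled on separate days, so the p-values measure only the spread between these samples, which may be technical. In bulk RNA, fewer cells that express a gene and less of its RNA per cell cannot be told apart.

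Values are CPM (counts of reads scaled to a common library size by the authors). The steps in the values gave between 16161794 and 18954746 estimated reads per library, and a single read corresponded to 0.0535 to 0.0622 CPM. Of the markers of the line, VIM, CD44 and EGFR had control means of 4068, 832 and 923 CPM, whereas SPARC, also taken as a marker of the line, did not exceed 0.414 CPM in the controls and reached 6.03 CPM in 1 CML library. The progesterone receptor gene PGR did not exceed 0.114 CPM and E-cadherin (CDH1) did not exceed 0.954 CPM in any library, while ERBB2 (49.5 CPM in controls) and EPCAM (14.2 CPM) were detected. The estrogen receptor gene had no entry under its symbol ESR1 among the deposited values, so its level cannot be read here. Of the markers of leukocytes and endothelium, PTPRC, CD14 and PECAM1 stayed at or below 0.650, 1.73 and 3.84 CPM.

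The glucocorticoid receptor, encoded by NR3C1, is held in the cytoplasm by HSP90 and its cochaperones until it binds cortisol, and then moves to the nucleus and binds palindromic response elements in DNA. Among the genes it switches on are FKBP5, TSC22D3, PER1, KLF9 and SGK1, which are widely used as readouts of receptor activity. SGK1 is a serine/threonine kinase activated through PI3K, mTORC2 and PDK1, and its best known substrate is the ubiquitin ligase NEDD4L, which it inhibits by phosphorylation. In breast cancer cells of the triple-negative kind, the receptor and SGK1 are known for promoting survival.

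The promoters of the genes are shown first because the table counts whole genes and does not tell which start site was used. RefSeq (GRCh38.p14) lists 3 starts for SGK1, 7 for NR3C1, 5 for NEDD4L, 4 for TSC22D3, 2 for FKBP5 and 1 each for PER1 and KLF9, or 23 promoter windows, and none for SGK3 was matched. Each window covers 250 bases before the start and 50 bases from it, and 5 motifs were searched on both strands with no mismatch. The 200 bases before the 3 SGK1 starts, the PER1 start and the TSC22D3 start that holds the letters TATAAA are printed 5′ to 3′. Capitals mark TATAAA (or TTTATA, the same motif on the other strand) in SGK1 and TSC22D3, and the E-box CACGTG in PER1.
SGK1 distal start (chr6:134318113-134318312, minus strand): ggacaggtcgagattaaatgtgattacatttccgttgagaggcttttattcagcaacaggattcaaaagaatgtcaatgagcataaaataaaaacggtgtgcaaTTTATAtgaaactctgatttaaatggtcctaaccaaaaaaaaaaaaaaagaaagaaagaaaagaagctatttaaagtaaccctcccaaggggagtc
SGK1 middle start (chr6:134177862-134178061, minus strand): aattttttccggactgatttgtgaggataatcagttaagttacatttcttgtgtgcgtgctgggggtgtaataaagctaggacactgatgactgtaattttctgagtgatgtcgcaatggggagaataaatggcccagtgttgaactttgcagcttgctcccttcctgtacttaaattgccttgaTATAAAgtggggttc
SGK1 proximal start (chr6:134174867-134175066, minus strand): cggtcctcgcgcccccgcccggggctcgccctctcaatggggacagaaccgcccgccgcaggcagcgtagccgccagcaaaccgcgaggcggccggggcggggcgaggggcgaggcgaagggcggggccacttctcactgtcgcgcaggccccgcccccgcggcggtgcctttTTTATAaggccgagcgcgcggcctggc
PER1 start (chr17:8152405-8152604, minus strand): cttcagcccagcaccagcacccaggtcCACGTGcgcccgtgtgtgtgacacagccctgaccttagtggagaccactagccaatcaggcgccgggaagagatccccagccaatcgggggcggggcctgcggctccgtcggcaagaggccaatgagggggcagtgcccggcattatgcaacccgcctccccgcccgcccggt
TSC22D3 inner start (chrX:107717063-107717262, minus strand): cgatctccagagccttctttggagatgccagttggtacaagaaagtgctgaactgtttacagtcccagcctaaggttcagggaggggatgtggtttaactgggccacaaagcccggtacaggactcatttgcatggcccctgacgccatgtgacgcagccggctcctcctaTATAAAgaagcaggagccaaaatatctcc

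The 3 SGK1 windows differed in base composition, with 38% GC at the distal start, 43% at the middle start and 73.3% at the proximal start. Each of the 3 held the TATA box letters TATAAA on either strand, with the first base -96, -15 and -27 bases from the start. The position was not part of the match, so these are not shown to be working TATA boxes. TATAAA was found in 11.5% of the 35116 promoters in the RefSeq table, and in 5 of the 23 windows of these genes, the other two being 1 of NR3C1 (-187) and 1 of TSC22D3 (-29). The E-box, which is bound by the clock proteins CLOCK and BMAL1 among others, lay at -173 in PER1 and at -227 in 1 FKBP5 window, against 7.26% of all promoters. The letters TGANTCA, a loose form of the AP-1 site with any base in the middle, lay in 1 NR3C1 window (-228) and 1 NEDD4L window (-42). Both read TGAATCA, and the loose form was found in 7.71% of all promoters. The core of the glucocorticoid response element, a palindrome of the half-sites GNACA and TGTNC with 3 bases of any kind between them, was present in 0.390% of all promoters and in 0 of the 23 windows, and the cyclic AMP response element TGACGTCA in 1.85% and 0 of 23. A match is a run of letters and not a site in use, and a response element outside these short windows would not have been found.

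SGK1 (ENSG00000118515.11, chr6:134169256-134318112, GRCh38) had 85.1, 87.3, 84.2 and 91.0 CPM in control replicates 1 to 4, and 98.5, 98.9, 96.2 and 98.6 CPM in CML replicates 1 to 4. The lowest CML library lay above the highest control library, so the groups did not overlap. The control mean was 86.9 ± 3.02 CPM (SD, n = 4) and the CML mean 98.0 ± 1.22 CPM (n = 4), a difference of 12.8%, or 0.17 on the log2(CPM + 1) scale with a standard error of 0.0255. The fold change is computed after adding 1 CPM, which understates changes of genes near that level. The FDR threshold of 0.3 was passed by 158 genes of the series (0.895% of all genes tested). SGK1 was among them because it was selected on this difference, so nothing is read from that. No gene of the series passed an FDR of 0.05 in this fit, although 1352 genes had an unadjusted p under 0.05 and between 0 and 199 genes passed an FDR of 0.05 in the alternative fits.

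The size of the SGK1 difference moved little when a library was left out, from 0.16 to 0.19, but SGK1 was not among the genes that passed without control replicate 2 or without CML replicate 2. The library-to-library variation of SGK1 was 3.47% of the mean in the controls and 1.24% in the CML group, against 2.61% and 2.44% from counting reads alone (1392 to 1848 estimated reads per library). The CML libraries lay closer together than counting alone would give on average.

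SGK3 (ENSG00000104205.14, chr8:66712781-66862022), the family member that is recruited to endosomes, had 22.02, 22.9, 20.6 and 24.4 CPM in the controls and 24.1, 22.6, 23.2 and 23.5 CPM in the CML group. The CML libraries all lay within the range of the controls. The log2 difference was 0.06 (95% interval -0.07 to 0.18, adjusted p = 0.897). SGK3 shares its locus and strand with the readthrough gene C8orf44-SGK3, and its values were whole reads in 2 of the 8 libraries, so its level is uncertain. SGK2, the remaining member of the family, was near the detection limit, between 0.239 and 0.684 CPM in controls and between 0.0579 and 0.436 CPM with CML. The ratio of SGK1 to SGK3 was 3.72 to 4.09 in the controls (3.87 ± 0.159) and 4.09 to 4.37 in the CML group (4.20 ± 0.120). The highest control ratio and the lowest CML ratio were both 4.09.

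NR3C1 (ENSG00000113580.15, chr5:143277931-143435512), which encodes the receptor itself, had 162, 173, 178 and 187 CPM in the controls and 172, 183, 182 and 195 CPM in the CML group. Replicate 1 was the lowest and replicate 4 the highest library in both groups, and the ranges overlapped over most of their width. The means were 175 ± 10.4 and 183 ± 9.38 CPM, and the log2 difference of 0.06 had a 95% interval from -0.06 to 0.19 (adjusted p = 0.897). Each CML library lay above the control of the same number. With the replicate number added to the fit, the adjusted p was 0.337 in limma, so NR3C1 did not pass there either. Between libraries NR3C1 varied by 5.91% and 5.13% of its mean, where counting alone would give 1.84% and 1.79%. The mineralocorticoid receptor gene NR3C2, whose product binds cortisol as well, had 122 ± 6.17 CPM in controls and 124 ± 2.26 CPM with CML.

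FKBP5 (ENSG00000096060.14, chr6:35573590-35728583) encodes the HSP90 cochaperone FKBP51, which lowers the receptor's affinity for its ligand and is itself induced by the receptor. It had 10.1, 12.3, 11.2 and 11.6 CPM in the controls and 11.5, 12.4, 12.3 and 11.3 CPM in the CML group. Control replicate 1 was the lowest library, and the 2 groups overlapped. The log2 difference was 0.07 (95% interval -0.09 to 0.22, adjusted p = 0.897). With 169 to 232 estimated reads per library, counting alone gave 7.23% and 7.01% of the mean; the observed variation was 8.25% and 4.74%.

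TSC22D3 (ENSG00000157514.16, chrX:107713221-107775988) encodes GILZ, a leucine zipper protein that mediates part of the anti-inflammatory action of glucocorticoids. It had 60.8, 58.1, 57.6 and 58.2 CPM in the controls and 62.8, 62.5, 60.0 and 60.9 CPM in the CML group. Control replicate 1 lay inside the CML range, and the other controls lay below it. The means were 58.7 ± 1.43 and 61.5 ± 1.32 CPM, a log2 difference of 0.07 (95% interval 0.01 to 0.12) with an unadjusted p of 0.0218 and an adjusted p of 0.529 in limma.

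PER1 (ENSG00000179094.16, chr17:8140472-8152404), a repressor in the circadian clock and a rapidly induced receptor target, had 19.7, 19.98, 18.7 and 16.8 CPM in the controls. In the CML group it had 23.7, 18.9, 21.8 and 23.4 CPM. CML replicate 2 lay among the controls, and the other CML libraries lay above all of them. The difference in means was the largest of the 8 genes in relative terms, 18.8 ± 1.47 against 21.96 ± 2.19 CPM or 16.9%, but so was its standard error of 0.0853 around a log2 difference of 0.21 (95% interval 0.01 to 0.41) with an unadjusted p of 0.0418 and an adjusted p of 0.623 in limma. The variation of PER1 between CML libraries was 9.97% of the mean, against 5.17% from counting. The file gives this Ensembl identifier another symbol, AC129492.1, and the gene was matched by the identifier.

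KLF9 (ENSG00000119138.4, chr9:70384604-70414657), a zinc finger repressor induced by glucocorticoids, was the 1 member with a lower mean in the CML group. It had 39.0, 39.6, 40.8 and 38.4 CPM in the controls and 35.9, 40.2, 38.5 and 38.6 CPM with CML. CML replicate 1 lay below all controls, and the other CML libraries lay among them. The log2 difference was -0.04 (95% interval -0.13 to 0.05, adjusted p = 0.897).

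NEDD4L (ENSG00000049759.18, chr18:58044226-58401540), the ligase that SGK1 phosphorylates and that removes the epithelial sodium channel from the membrane, had 346, 359, 368 and 383 CPM in the controls and 380, 391, 384 and 396 CPM with CML. Control replicate 4 lay inside the CML range, and the other controls lay below it. The means were 364 ± 15.5 and 388 ± 7.36 CPM, a log2 difference of 0.09 (95% interval 0.02 to 0.17) with an unadjusted p of 0.0252 and an adjusted p of 0.553 in limma. Control replicate 4 was also the highest control library for SGK1, SGK3 and NR3C1, and it had the most estimated reads of the controls. Without control replicate 4, NEDD4L passed the threshold (adjusted p = 0.245 in limma). In that fit 690 of the 17649 genes passed, against 158 with all 8 libraries.

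**Figure D1:**
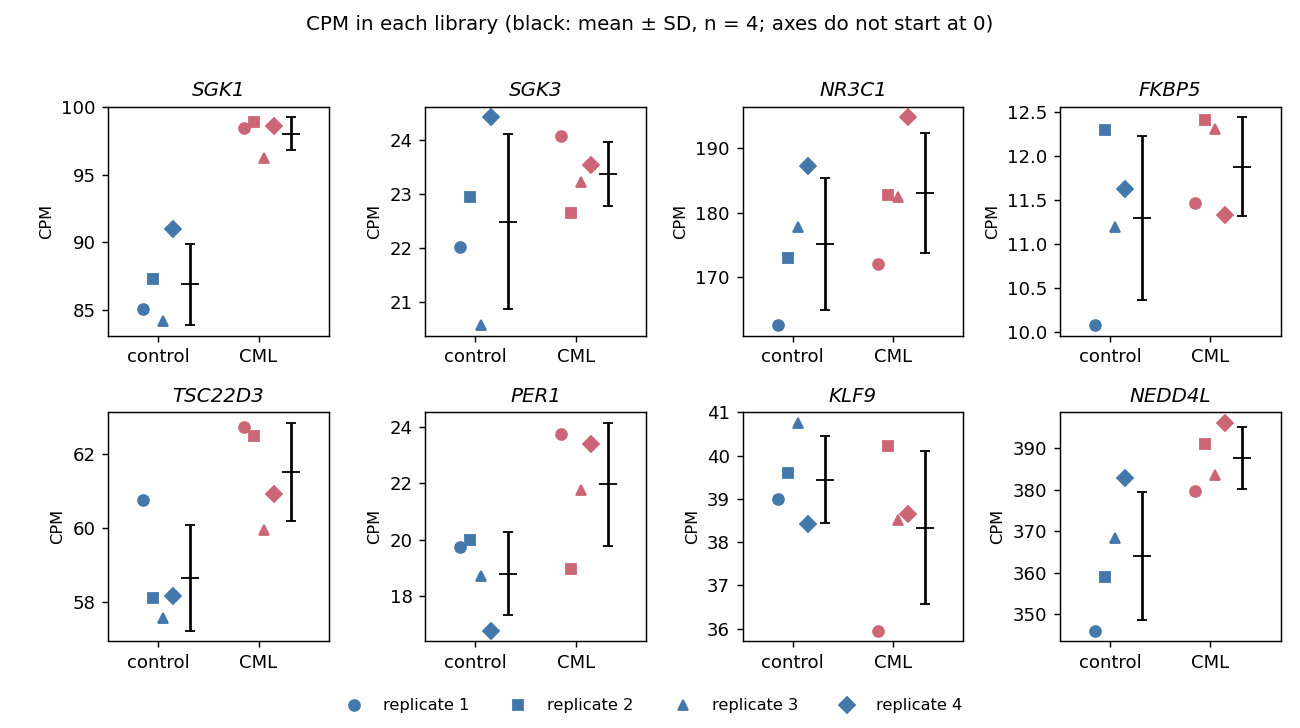
CPM of each of the 8 genes (vertical axes, which do not start at 0) in the 4 control libraries (blue) and the 4 CML libraries (red), with the replicate number as the symbol and the mean ± SD in black. The groups are apart for SGK1 (84.2 to 91.0 against 96.2 to 98.9 CPM) and overlap for the other 7 genes.

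Of the 7 genes other than SGK1, all but KLF9 had a higher mean with CML. Among the 14090 genes that averaged 0.5 CPM or more, 57.7% were higher, with a median log2 difference of 0.01. The median of all 8 genes was 0.07, but it includes SGK1, which was selected on its rise. Apart from SGK1, on which the set was built, 0 of the other 7 passed the threshold in limma, while among all genes averaging 0.5 CPM or more 0.788% passed as higher and 0.213% as lower. At an unadjusted p under 0.05 in limma, 3 of the 7 (TSC22D3, PER1 and NEDD4L) were higher and 0 lower, beside 5.44% of all such genes as higher and 2.86% as lower. The set was proposed with earlier results of these libraries known, so this count is a description and no enrichment is read from it. The groups overlapped for each of the other 7, whereas 2.93% of all such genes had no overlap as higher and 1.33% as lower. Just inside the threshold the adjusted p was 0.297 and just outside it 0.301. In a fit that added GC content and transcript length as a correction within each library, NEDD4L (log2 difference 0.08, adjusted p = 0.0391) and PER1 (0.21, adjusted p = 0.253) passed in limma, beside 6.73% of the 12974 genes tested in that fit, and the SGK1 difference was 0.17.

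**Figure D2:**
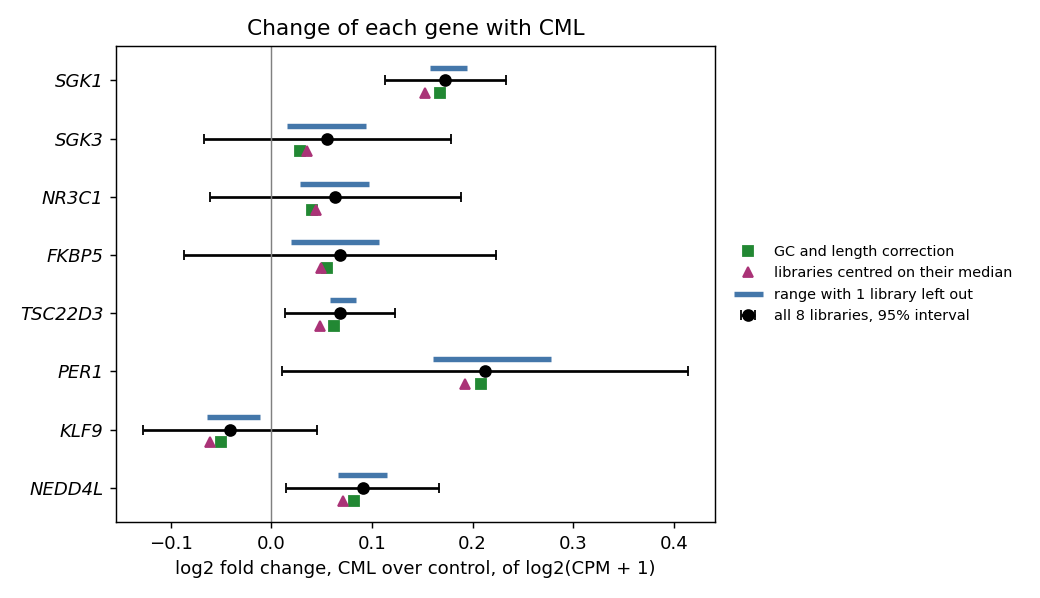
Log2 difference of each gene between CML and control on the log2(CPM + 1) scale (horizontal axis), with the 95% interval over all 8 libraries (black), the range with 1 library left out (blue bar) and the values after GC and length correction (green squares) and after centring each library on its median (purple triangles). SGK1 lies at 0.17 with an interval from 0.11 to 0.23 and is shown as the gene chosen for this difference, PER1 has the widest interval, and KLF9 lies at -0.04.

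Levels of different genes were compared per kilobase of the canonical transcript. NEDD4L was the highest, with 42.2 ± 1.79 CPM per kb in the controls and 44.9 ± 0.853 with CML, above 88.3% of the genes averaging 0.5 CPM or more. SGK1 (26.8 ± 0.929 CPM per kb), TSC22D3 (25.9 ± 0.629) and NR3C1 (25.8 ± 1.53) followed, and the control ranges of these neighbours overlapped, so their order in the controls is not beyond the spread. With CML, SGK1 stood at 30.2 ± 0.375 CPM per kb, above the highest values of TSC22D3 (27.7) and NR3C1 (28.8). That position includes the rise on which SGK1 was selected, so nothing is read from it. The levels also rest on the canonical length of each gene, and the start sites used are not known. KLF9 (7.58 in the controls), SGK3 (5.48), PER1 (4.02) and FKBP5 (3.01) formed the lower part of the order, and their control ranges did not overlap one another. FKBP5, a standard readout of the receptor, was above 32.2% of genes. The order of the means was the same in both groups.

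**Figure D3:**
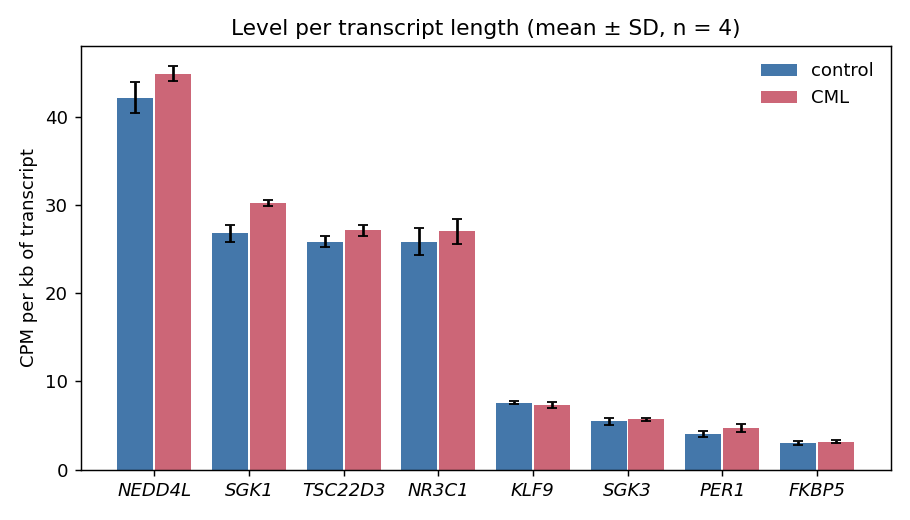
Mean level of each gene in CPM per kb of its canonical transcript (vertical axis, from 0) in control (blue) and CML (red) libraries, with SD as error bars (n = 4). NEDD4L is the highest at 42.2 and 44.9, SGK1, TSC22D3 and NR3C1 lie between 25.8 and 30.2, and the other 4 genes lie at or below 7.58.

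A wider list of 58 genes known to be induced by glucocorticoids was described next, of which 53 were in the table and 51 averaged 0.5 CPM or more. The list holds 5 of the genes above. It and the lists after it were also chosen with earlier results of these data known. Apart from SGK1, 1 of the other 50 passed as higher (DUSP1) and 1 as lower (IGFBP1), beside the backgrounds of 0.788% and 0.213%. Of all 51, SGK1 included, 34 were higher and 17 lower, with a median log2 difference of 0.03. Among all genes averaging 0.5 CPM or more, 57.7% were higher. At an unadjusted p under 0.05 in limma, 8 of the 51 were higher (SGK1 included) and 4 lower, beside 5.44% and 2.86% of all such genes. The groups did not overlap for 3 as higher (SGK1, DUSP1 and GPX3) and 1 as lower (IGFBP1), beside 2.93% and 1.33%. DUSP1, the phosphatase that switches off p38 and JNK, had 23.0 ± 0.839 CPM in controls and 27.2 ± 1.76 CPM with CML (log2 difference 0.23, adjusted p = 0.297 in limma). IGFBP1, a secreted binder of insulin-like growth factors that FOXO factors and glucocorticoids induce, fell from 89.6 ± 3.44 to 79.98 ± 2.17 CPM (log2 difference -0.16, adjusted p = 0.244). Each of DUSP1 and IGFBP1 passed in 1 of the 8 fits that left out a library. In both cases it was the fit without control replicate 4, where 690 of the 17649 genes passed. DUSP1 also did not pass with centring, with quantile normalization or with a pseudocount of 0.1 (adjusted p = 0.301 in limma), and IGFBP1 did not pass with the replicate block (adjusted p = 0.333).

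Of the remaining genes of this list, the zinc finger factor KLF6 had 264 and 278 CPM (log2 difference 0.07, adjusted p = 0.489 in limma), and the antioxidant enzyme gene GPX3 differed by 0.14 (adjusted p = 0.381). The most abundant were ERRFI1, a feedback inhibitor of the EGF receptor, with 1680 and 1760 CPM (adjusted p = 0.729), and PHLDA1 with 953 and 973 CPM (adjusted p = 0.899). After GC and length correction 9 genes of this list passed as higher and 2 as lower, SGK1 included, in a fit where 4.24% of all genes tested passed as higher and 2.49% as lower. Among the 9 were MT2A, SGK1, ERRFI1, DUSP1, MT1X, BIRC3, KLF6 and PER1, and the 2 were IGFBP1 and IL1R1.

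Among 36 expressed genes for folding of the receptor, its cofactors and steroid metabolism, 1 passed as higher and 0 as lower. Among all genes averaging 0.5 CPM or more, 0.788% passed as higher and 0.213% as lower. Means were higher for 26 of the 36 and lower for 10, with a median of 0.02, beside 57.7% higher among all such genes. At an unadjusted p under 0.05 in limma, 2 were higher and 0 lower, beside 5.44% and 2.86%. The groups did not overlap for 2 as higher (DNAJB1 and NRIP1) and 0 as lower, beside 2.93% and 1.33%. The gene that passed was DNAJB1, an HSP40 cochaperone, at 205 ± 2.87 and 215 ± 2.30 CPM (log2 difference 0.07, adjusted p = 0.255 in limma). DNAJB1 overlaps TECR on the opposite strand. It did not pass with a minimum mean of 1 CPM, with centring, with quantile normalization, without the variance trend or with the replicate block. NRIP1, a corepressor of nuclear receptors, had 40.8 and 46.0 CPM (0.17, adjusted p = 0.364), and the HSP90 genes HSP90AA1 (1064 and 1137 CPM, 0.10, adjusted p = 0.684) and HSP90AB1 (2635 and 2677 CPM, 0.02, adjusted p = 0.961) did not pass. HSPA8, which loads the receptor onto HSP90, had 1638 and 1694 CPM (adjusted p = 0.836), and the cochaperone PPID differed by 0.08 (adjusted p = 0.728). After GC and length correction, where 4.24% of all genes passed as higher, DNAJB1 (adjusted p = 0.285), HSP90AA1 (0.0420) and NRIP1 (0.194) passed as higher.

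Upstream of SGK1, 33 expressed genes of the SGK kinase pathway (PI3K subunits, mTORC2, PDK1, the AKT and SGK kinases, phosphatases) included 0 that passed in limma among the 32 other than SGK1 itself, and 0 of the 32 had an unadjusted p under 0.05. Among all genes averaging 0.5 CPM or more, 0.788% passed as higher and 0.213% as lower. At an unadjusted p under 0.05 in limma, 5.44% of all such genes were higher and 2.86% lower. In this list, SGK1 included, 21 genes were higher and 12 lower, with a median of 0.02, beside 57.7% higher among all such genes. INSR, the insulin receptor, had 36.96 and 33.9 CPM (log2 difference -0.12, adjusted p = 0.680), and PHLPP2, a phosphatase of the kinases' hydrophobic motif, had 12.7 and 14.1 CPM (0.14, adjusted p = 0.748). PPP2CA had 189 and 197 CPM (adjusted p = 0.690), with no library at whole reads. SYVN1, the HRD1 ligase that degrades SGK1, had 364 CPM in both groups, and WNK1 211 and 213 CPM, and the sign of these last differences turned in some alternatives. SYVN1 held whole reads in no library and overlaps FAU on the same strand, so its level is uncertain. Besides SGK1, PIK3R2 passed as higher and INSR as lower after GC and length correction (4.24% and 2.49% of all genes tested), and PIK3R2 held whole reads in no library.

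Downstream of SGK1, 31 expressed genes for SGK substrates, ion transporters and NEDD4 ligases included 0 that passed in limma. Among all genes averaging 0.5 CPM or more, 0.788% passed as higher and 0.213% as lower. At an unadjusted p under 0.05 in limma, 1 of the 31 (NEDD4L) was higher and 0 lower, beside 5.44% and 2.86%. Means were higher for 19 and lower for 12, with a median of 0.02, beside 57.7% higher among all such genes. NEDD4, the closest relative of NEDD4L, had 158 ± 8.72 and 171 ± 10.7 CPM (0.11, adjusted p = 0.728). SLC9A3, the sodium-proton exchanger NHE3, had 1.72 and 1.11 CPM (-0.36, adjusted p = 0.680), held whole reads in no library and overlaps EXOC3, so that its low level is uncertain. The glutamine transporter SLC1A5 had 577 and 583 CPM with a difference whose sign turned with centring and with quantile normalization. After GC and length correction 3 passed as higher (NEDD4L, NEDD4 and SMURF2), beside 4.24% of all genes tested in that fit.

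Of 23 expressed circadian clock genes, to which PER1 belongs, 1 passed as higher and 0 as lower. Among all genes averaging 0.5 CPM or more, 0.788% passed as higher and 0.213% as lower. Means were higher for 16 of the 23 and lower for 7, with a median of 0.04, beside 57.7% higher among all such genes. At an unadjusted p under 0.05 in limma, 4 of the 23 were higher and 0 lower, beside 5.44% and 2.86%. BHLHE40, the repressor DEC1, had 126 ± 1.03 and 135 ± 3.23 CPM (log2 difference 0.09, adjusted p = 0.228 in limma), and it passed in 2 of the 8 fits that left out a library. The repressor NFIL3 had 52.4 and 56.1 CPM (0.10, adjusted p = 0.381), TIMELESS 31.9 and 36.1 CPM (0.17, adjusted p = 0.469), and the most abundant of the list, NPAS2 (158 and 160 CPM) and NR1D2 (140 and 154 CPM, adjusted p = 0.700), did not pass. The PER1 relatives PER2 (7.47 and 7.84 CPM) and PER3 (11.5 and 10.8 CPM) did not pass, and the groups overlapped for both. The groups did not overlap for BHLHE40, NFIL3 and TIMELESS. These were 3 of the 23 as higher and 0 as lower, beside 2.93% and 1.33% of all genes averaging 0.5 CPM or more. For NPAS2 the sign of the difference turned with centring and with quantile normalization. After GC and length correction BHLHE40 (adjusted p = 0.120 in limma), TIMELESS (0.137), NR1D2 (0.189) and PER1 passed as higher, beside the same 4.24%. In the fit without that correction BHLHE40 did not pass with those settings, with a minimum mean of 1 CPM or with the replicate block (adjusted p = 0.323 in limma). Of the list genes named, DNAJB1, ERRFI1, HSP90AA1, NR1D2, NRIP1, PIK3R2, PPID, PPP2CA, SLC1A5, SLC9A3, SMURF2 and SYVN1 overlap another gene of the table, and since counting by strand is not stated, reads shared by such neighbours cannot be told apart.

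**Figure D4:**
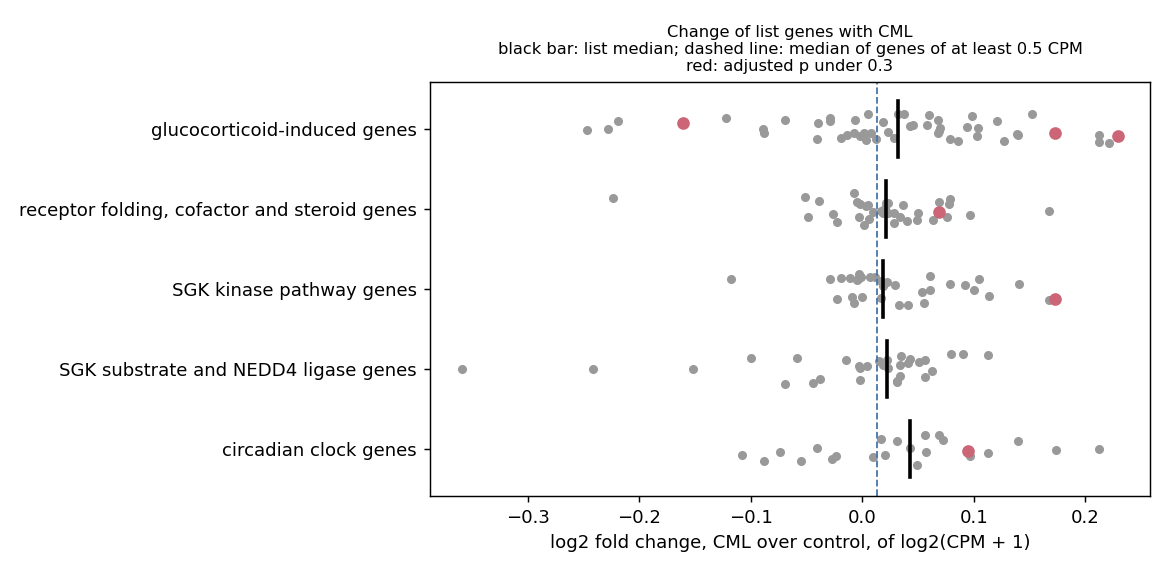
Log2 difference between CML and control on the log2(CPM + 1) scale (horizontal axis) of each gene averaging 0.5 CPM or more in 5 lists, 1 point per gene, with the list median (black bar), the median of all such genes (dashed line, at 0.01) and genes with an adjusted p under 0.3 in red. The list medians lie between 0.02 and 0.04, and 4 of the lists hold at least 1 red point, SGK1 being the red point of the kinase pathway.

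Across the 8 libraries, the genes whose log2(CPM + 1) was most like that of SGK1 among 9410 genes averaging 10 CPM or more were MELK (Pearson r = 0.984), GPRC5A (0.981), MYBL1 (0.980), PIGU (0.979) and PLK4 (0.974). These libraries share their group difference, so genes chosen in this way differ between the groups as SGK1 does. Of the other 7 genes, NEDD4L came 240th with r = 0.842, TSC22D3 662nd with 0.728 and SGK3 1102nd with 0.640. NR3C1 came 1657th with 0.549, PER1 1688th with 0.544, FKBP5 2087th with 0.488, and KLF9 8668th with -0.49. When each library was taken as its deviation from its group mean, the most alike were RBM26 (0.986), SS18 (0.974), CKS2 (0.969), TMEM165 (0.967) and CBR4 (0.966). SGK3 then came 221st with r = 0.850, and NEDD4L 1717th with 0.625. Among the receptor targets, r was then 0.350 for FKBP5, 0.0232 for TSC22D3, -0.328 for KLF9 and -0.429 for PER1, and it was 0.492 for NR3C1. These values describe 8 libraries and carry no p.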

How the data were processed

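RNA-Seq of total RNA was analysed for 4 control and 4 CML libraries, grouped and numbered by their titles. The authors deposited CPM values, 1 column per library, in 17681 rows of Ensembl identifiers with symbols. The submitters' processing notes name edgeR and hg38, and for this experiment the aligner and counting tool are not given in the sources used here. NextSeq and HiSeq are both named as the sequencer in the labels, and the paper's supplement names HiSeq for the CML experiment. For the tumors of the study the paper's methods name Tophat and hg19, a different build from that in these notes. The paper's methods describe edgeR scaling of CPM under those tumors. For the pathway analysis of tumors, xenografts and cell lines they also name CPM scaled in that way. Columns summing to between 986730 and 1014124 fit a scaled CPM. Steps in the values gave estimated reads, and 85.0% to 86.0% of values above 0 were whole within 0.01 read, so the counts were estimates and no count test was run.

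Rows sharing a symbol were averaged (32 symbols, leaving 17649 genes), and log2(CPM + 1) was fitted in limma (version 3.58.1, R version 4.3.3) with a variance trend, and p was adjusted over all genes by the Benjamini-Hochberg method, at an FDR of 0.3. The code was tested on simulated data. Standard errors and intervals are limma's, and the 95% intervals are not adjusted for multiple testing. PER1 was matched by identifier. Gene positions and promoters are from RefSeq on GRCh38, and transcript lengths and GC are those of GENCODE canonical transcripts. Depth limits each value to steps of 1 read, and counting variation was taken as the inverse square root of the estimated reads.

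The genes and lists were chosen with earlier results of these data known. Named from each list were the genes that passed with a mean of at least 0.5 CPM, the 3 of smallest p among the rest and the 2 most abundant, with the 5 genes most like SGK1. Genes named as passing after GC and length correction, and genes overlapping those named, lie outside this rule and were chosen after their values were seen, and of the paralogs only some are named. Some genes that the rule selects are not reported here. The alternatives tried were a minimum mean of 1 CPM, a pseudocount of 0.1, separate rows, median centring, quantile normalization, no variance trend, the replicate number as a block, a GC and length correction, both together, and each library left out. Plots were made with Python 3.11.15 and matplotlib 3.10.9.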

Additional observations from a re-analysis of the deposited data

Results flagged for a closer look

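Within a group of 4 libraries, 1 library stood far from the other 3 by Dixon's test in 8 of the 94 group and measure pairs examined, where chance gives about 1 in 20. Leaving out PGR, whose range rests on very few reads, it was 6 of 92. SGK1 was at 96.2 CPM in CML replicate 3, whereas the remaining CML libraries lay at 98.5 to 98.9 CPM. IGFBP1 was at 76.8 CPM in CML replicate 1, against 80.6 to 81.3 CPM, PPP2CA at 188 CPM in the same library, against 200 to 202 CPM, and SLC9A3 at 1.60 CPM there, against 0.885 to 0.989 CPM. SLC1A5 was at 545 CPM in CML replicate 4, against 591 to 600 CPM in the others. PGR was listed at 0 in most libraries, at 0.114 CPM in control replicate 4 and at 0.0535 CPM in CML replicate 2. Control replicate 4 held 17729532 estimated reads, against 16559901 to 16690411 in the other controls. The part of read depth in the high SGK1, SGK3, NR3C1 and NEDD4L values of that library was not tested.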

How the results depend on the processing

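The number of genes that passed was 158, 75.3% of them higher. It was 73 with libraries centred on their median (63.0% higher), 144 with quantile normalization (62.5% higher), 189 with the replicate block, 873 with the GC and length correction (63.0% higher), 922 with the replicate block and that correction together (63.1% higher), and 20 to 690 with 1 library left out (20 without CML replicate 2, 690 without control replicate 4). Of the 8 genes, 1 passed, 3 with the GC and length correction with or without the replicate block, and 0 to 2 with 1 library left out. For the glucocorticoid-induced list the count of 3 became 11 in both corrected fits and 0 to 7 with 1 library left out. For the folding list the count of 1 became 0 with a minimum of 1 CPM, with centring, with quantile normalization, without the trend and with the replicate block, 3 in both corrected fits and 0 to 1 with 1 library left out. For the kinase pathway 1 became 3 with the correction, 2 with the replicate block added and 0 to 1 with 1 library left out. For the substrate list 0 became 1 with the replicate block, 3 in both corrected fits and 0 to 2 with 1 library left out. For the clock list 1 became 0 with a minimum of 1 CPM, with centring and with quantile normalization, 4 in both corrected fits and 0 to 3 with 1 library left out. The causes were not tested. None of the 8 genes changed direction in any of the 17 alternatives. Log2 differences near 0 turned sign for WNK1 (-0.0079 centred, -0.014 quantile, -0.021 to 0.040 with 1 library left out, below 0 without control replicate 1 or, at -0.0053, without CML replicate 2), SLC1A5 (-0.0042, -0.0066, and -0.021 to 0.047 with 1 library left out), NPAS2 (-0.0030 and -0.0043) and SYVN1 (-0.026 to 0.036 with 1 library left out, and 0.021, 0.014 and 0.036 without control replicate 1, control replicate 3 or CML replicate 4). Same-numbered libraries did not deviate together in every pair (correlations of 0.199, -0.0303, -0.0645 and 0.334), so the replicate block shares only a number. With 169 to 232 reads, FKBP5 could not be resolved as finely as NEDD4L.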
